A study of Mus musculus with 10 samples.

Results

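The chemokine system was read in FDB1 cells, a mouse myeloid progenitor line that depends on IL-3, carrying either of 2 activated receptor mutants. The genes were chosen by symbol: all Ccl, Cxcl, Ccr and Cxcr genes with a number, Cx3cl1, Cx3cr1, Xcl1 and Xcr1, without the atypical receptor Ccrl2 and the unrelated Ccrn4l. This gave 51 genes from 52 probes, among 20243 features on the array. There were 34 ligands, of which 21 were CC, 11 CXC and 2 CX3C or XC, and 17 receptors, of which 10 were CC, 5 CXC and 2 CX3C or XC. The rule for genes used symbols alone, though it was set with earlier results of these data known. Cxcr1 and Cxcl3 were not analysed here.

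The FI-Delta line expressed an activated form of the beta chain that receptors for IL-3, IL-5 and GM-CSF have in common, and the Y577F line expressed the same mutant with a tyrosine of the chain replaced by phenylalanine. Each line was sampled after 72 h without growth factor, having been washed free of it, and at 0 h, while growing with mouse IL-3 and fetal calf serum. The groups were thus Y577F at 72 h, Y577F at 0 h, FI-Delta at 72 h and FI-Delta at 0 h, with 2 biological replicates of each line. Both lines carried the FI-Delta mutation, and no line with the normal receptor was among the samples. The labels do not say whether a line was a clone or a pool. With no cells kept for 72 h in IL-3, loss of factor, washing and time cannot be told apart.

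RNA pairs were hybridised to 10 spotted 2-colour arrays: 2 compared 72 h with 0 h in Y577F cells, 3 did so in FI-Delta cells, 2 compared Y577F with FI-Delta cells at 72 h, and 3 did so at 0 h. Values are log2 ratios, given here as Y577F over FI-Delta or as 72 h over 0 h after turning the sign of each array by its title. The direction as deposited was not stated and was taken as Cy5 over Cy3. If that is wrong, every direction below turns. FI-Delta time arrays 1 and 2 were a dye swap of the same extracts and counted as 1 sample, and 0 h line arrays 2 and 3 shared an extract by title. Log2 ratios carry no absolute level, so neither the presence of a transcript nor the identity of the cells could be checked against markers. Array medians lay between -0.0111 and 0.00335 and the SD over features between 0.233 and 0.371. On 244 empty spots the SD was between 0.231 and 0.388 across arrays, so a log2 ratio of that size on a single array is no larger than the spread of spots without a probe. Over all features, arrays of opposite dye correlated after turning with r of 0.63 for the Y577F time arrays and 0.519 for the 72 h line arrays. The FI-Delta time arrays gave 0.236 and 0.351, and 0 h line array 1 gave only 0.087 and -0.037 with arrays 2 and 3. Over the 51 chemokine genes, the same 0 h pairs had r of 0.695 and 0.773, and the FI-Delta pairs 0.405 and 0.535. The Y577F pair had 0.82 and the 72 h line pair 0.888. Such r can rest on a few genes with large ratios and does not vouch for single genes. All correlations are across genes, which are not replicates.

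Chemokines are small secreted proteins that direct the movement of leukocytes through receptors coupled to G proteins. Inflammatory chemokines are made on stimulation by myeloid and other cells, often from genes that lie side by side in the genome. Receptor use follows cell type: CCR2 and CX3CR1 are best known on monocytes and macrophages, CXCR2 on neutrophils, and CCR3 on eosinophils. GM-CSF and IL-3 both act on myeloid cells of these kinds, through receptors that share the beta chain mutated here.

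The promoters of 4 ligand genes are shown because Cxcl2 differed between the lines while its neighbour Cxcl1 passed no test, and because Ccl17 and Ccl22, ligands of the same receptor, both differed between the lines at 72 h. They are the 150 bases before the annotated start, from RefSeq on build GRCm38.p6, 5′ to 3′, all on the plus strand. They lie at chr5:90903749-90903898 for Cxcl2, chr5:90891095-90891244 for Cxcl1, chr8:94810303-94810452 for Ccl17 and chr8:94745534-94745683 for Ccl22. Capitals mark kappaB motif matches in Cxcl2 and Cxcl1 and a STAT motif match in Ccl17.
Cxcl2: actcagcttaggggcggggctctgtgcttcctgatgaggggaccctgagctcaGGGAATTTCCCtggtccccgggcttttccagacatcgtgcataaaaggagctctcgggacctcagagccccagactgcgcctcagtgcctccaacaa
Cxcl1: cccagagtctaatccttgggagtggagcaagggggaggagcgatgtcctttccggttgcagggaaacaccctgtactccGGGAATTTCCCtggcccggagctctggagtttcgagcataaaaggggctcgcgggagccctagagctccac
Ccl17: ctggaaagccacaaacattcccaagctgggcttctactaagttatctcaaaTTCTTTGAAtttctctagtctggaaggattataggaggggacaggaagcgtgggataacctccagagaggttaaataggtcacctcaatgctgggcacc
Ccl22: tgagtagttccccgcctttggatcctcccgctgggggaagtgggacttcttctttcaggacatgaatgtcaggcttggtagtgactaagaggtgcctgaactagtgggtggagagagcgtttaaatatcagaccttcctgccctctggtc
The capitals of Cxcl2 and Cxcl1 spell the same run, at -97 to -87 and at -71 to -61 from the start, and each run holds overlapping matches on both strands. Neither motif was found in the Ccl22 window shown.

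Promoters of 38 of the 51 genes were matched in RefSeq, and 6 motifs were searched on both strands of the 250 bases before the start. The kappaB motif was found in 9 of the 38 (23.7%) and in 8.23% of 27025 genes. These 9 were Ccl1, Ccl20, Ccl9, Ccr1, Ccr3, Ccr6, Cxcl1, Cxcl10 and Cxcl2. Of them, Ccl9, Ccr1, Ccr6 and Cxcl2 passed the test in at least 1 comparison, beside 21 of all 51 genes and 25.2% of all features. The 51 include genes whose promoters were not searched, so the sets differ, and calls among the 38 alone were not counted. The AP-1 motif TGANTCA was in 13.2% of the chemokine genes and 7.82% of all genes, and the STAT motif TTCNNNGAA in 10.5% and 8.13%. The PU.1 core GAGGAAGT was in 2.63% and 2.79%, the C/EBP motif TTGCNNAA in 7.89% and 10.8%, and the E-box CACGTG in 2.63% and 6.86%. A match is a string of letters only and shows no binding.

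A linear model over all 4 groups (limma, with a dye term) gave 5 comparisons, which share RNA groups and arrays and are therefore not independent. A gene was called higher or lower at an adjusted p under 0.05, with Benjamini-Hochberg adjustment over all 20243 features, and SE are from the model. Since the model draws on all arrays, its value can lie outside those of the arrays that made the comparison directly. Over time in Y577F cells, 11 of 51 genes (21.6%) rose and 0 fell, beside 9.28% of all features that rose and 8.75% that fell. In FI-Delta cells 6 (11.8%) rose and 0 fell over time, beside 5.19% and 2.97% of all features. At 72 h, 12 genes (23.5%) were higher and 5 (9.80%) lower in Y577F than in FI-Delta cells, beside 6.44% and 6.45% of all features. At 0 h, 3 (5.88%) were higher and 0 lower, beside 0.934% and 0.484%. The change over 72 h was larger in Y577F than in FI-Delta cells for 8 genes (15.7%) and smaller for 2 (3.92%), beside 4.33% and 4.91% of all features.

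In all, 21 of the 51 genes were called in at least 1 comparison, beside 25.2% of all features. The 3 counts of 0 lower genes rest on limma at the adjusted threshold, and 4 genes fell over time in FI-Delta cells with array weights. Without adjustment, p was under 0.05 in either direction for 17 genes over time in Y577F cells, 15 over time in FI-Delta cells, 23 between lines at 72 h and 12 at 0 h, beside 29%, 19.8%, 25.6% and 12.1% of all features in the same order. The median log2 change of all 51 genes stayed small: 0.13 over time in Y577F cells, 0.04 in FI-Delta cells, 0.12 between lines at 72 h and 0.01 at 0 h, against 0.01, -0.01, 0.01 and -0.01 over all features. A change of at least 2-fold was called for 4 genes over time in Y577F cells, 0 in FI-Delta cells, 7 between lines at 72 h and 2 at 0 h, beside 1.85%, 0.716%, 1.45% and 0.119% of all features. Leaving out FI-Delta time array 3 brought the FI-Delta time count to 3, and leaving out 72 h line array 2 brought the count for the difference between lines to 5, against 10 in the full fit. For these counts, and for the 4 with array weights, the share of all features called in the same fit is not given. They do not show whether the chemokine genes moved more than other features. Arrays share RNA extracts, and a fit with a term for each extract, which also had no dye term, ended the 72 h calls of Ccl9 (0.90, adjusted p = 0.0597), Cxcl15 (0.59, adjusted p = 0.0558), Ccr10 (-0.58, adjusted p = 0.0635) and Cxcr4 (-0.58, adjusted p = 0.0665). It also ended those of Cxcr5, Ccl5 and Ccl25, and the time calls of Cxcr2 in FI-Delta cells and of Ccr6 and Xcr1 in Y577F cells. Of the 10 differences in change, those of Ccl22, Ccl9, Cxcl15, Ccr6, Cxcr2 and Cxcr3 did not pass in it.

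**Figure D1:**
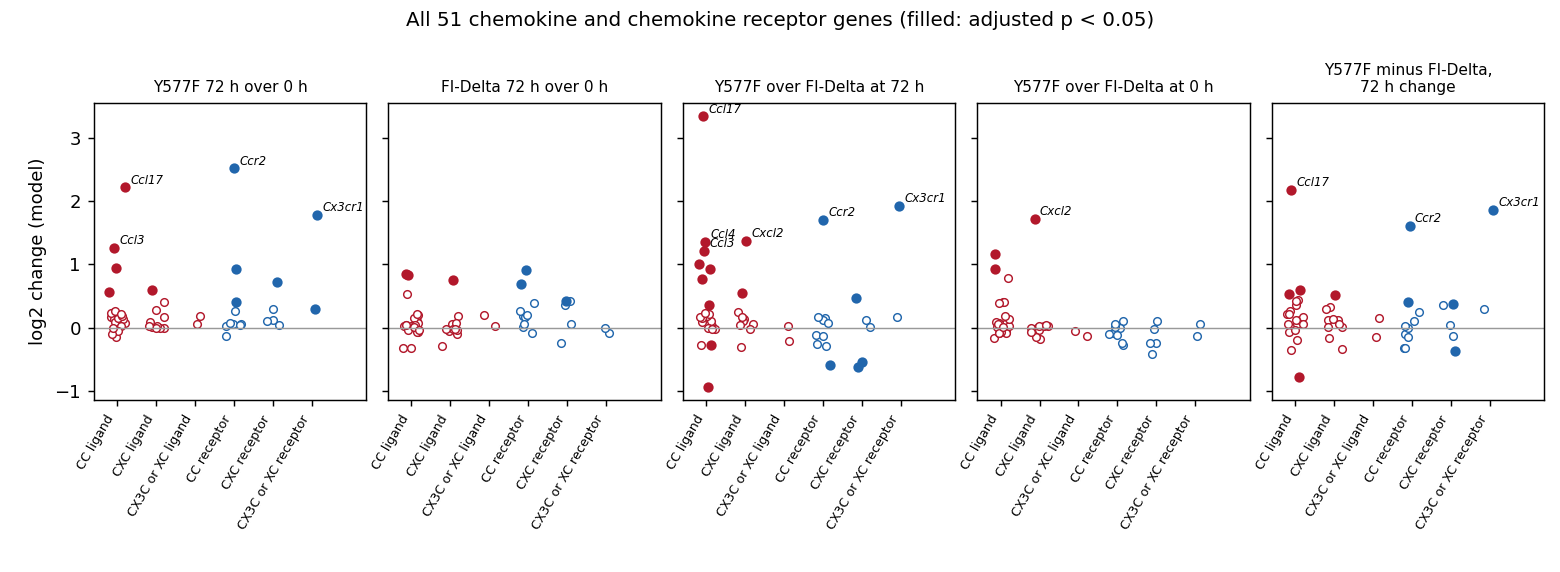
Modelled log2 change (vertical axis) of all 51 genes in each of the 5 comparisons, by class of ligand (red) or receptor (blue); filled points passed an adjusted p of 0.05. Most points lie near 0, and Ccl17, Ccr2 and Cx3cr1 stand apart in the panels that involve Y577F cells at 72 h.

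Among the ligands, Ccl17 showed the largest difference between lines of all 51 genes, at 72 h. Ccl17 and Ccl22 are the ligands of CCR4 and are made by dendritic cells and macrophages. The log2 ratio of Y577F to FI-Delta cells for Ccl17 was 3.32 and 3.40 on the 72 h arrays, and 1.42, 0.79 and 1.32 on the 0 h arrays. The gene was higher in Y577F cells on all 5, and the 72 h values lie above the 0 h values with no overlap. Over time it rose by 1.85 and 2.58 on the Y577F arrays, while the FI-Delta arrays read -0.06, 0.10 and 0.14, at the scale of the empty spots.

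The model gave Ccl17 a 10.2-fold difference between lines at 72 h (log2 3.35 ± 0.15, adjusted p = 8.35e-08) and a 2.24-fold difference at 0 h (1.16 ± 0.13, adjusted p = 0.00112). Without 0 h line array 1, the 0 h value was 0.94 with an adjusted p of 0.0402. The rise over 72 h in Y577F cells was 4.67-fold (adjusted p = 1.64e-06). In FI-Delta cells the change was 0.04 with a 95% interval of -0.29 to 0.37, and the difference between lines in the change was 2.18 ± 0.17 (adjusted p = 2.09e-05). Set on 1 scale with FI-Delta cells at 0 h as 0, the modelled Ccl17 level was 3.39 in Y577F cells at 72 h, 1.16 in Y577F cells at 0 h and 0.04 in FI-Delta cells at 72 h.

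Ccl22 followed at smaller size. It read 1.18 and 1.06 between lines at 72 h, and 0.50, 0.21 and 0.27 at 0 h, again without overlap. At 72 h it was 2.01-fold higher in Y577F cells (adjusted p = 0.000102), and over time it rose by 0.56 ± 0.11 in Y577F cells (adjusted p = 0.00421). In FI-Delta cells its change was -0.03, with an interval of -0.29 to 0.22. At 0 h the difference of 0.41 did not pass (adjusted p = 0.0848), although it did without Y577F time array 1 (0.39, adjusted p = 0.0309). Ccr4, the receptor of both, passed no test, and its largest change was 0.12 between lines at 72 h (adjusted p = 0.498).

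Ccl3 and Ccl4, the macrophage inflammatory proteins, were higher in Y577F than in FI-Delta cells at 72 h. Ccl3 read 1.07 and 1.27 on the 72 h line arrays and 1.23, 0.16 and 1.05 at 0 h. Over time it read 1.28 and 1.35 in Y577F cells, while the FI-Delta arrays were spread at -0.16, 0.62 and 1.32, with the lowest and one middle value coming from the same extracts in swapped dyes. The 2 FI-Delta dye-swap values for Ccl3 differ more than the Y577F cultures do.

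Ccl3 was 2.33-fold higher in Y577F cells at 72 h (adjusted p = 0.00272) and rose 2.41-fold over time in them (adjusted p = 0.00157). Its rise in FI-Delta cells of 0.83 ± 0.22 only just passed (adjusted p = 0.0438) and was lost on leaving out any of 8 arrays, with values between 0.56 and 0.85 there. The difference of 0.78 ± 0.19 at 0 h did not pass (adjusted p = 0.0892), but did without FI-Delta time array 1 (0.81) or 0 h line array 2 (1.00). The rise over time was not shown to differ between lines (0.44 ± 0.25, interval -0.10 to 0.98).

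Ccl4 was higher in Y577F cells on all 5 line arrays, at 1.26 and 1.57 at 72 h and 1.39, 0.81 and 0.54 at 0 h. These values overlap between the times. It was 2.56-fold higher at 72 h (adjusted p = 0.000341) and 1.91-fold higher at 0 h (adjusted p = 0.0128). The 0 h call rested on 0 h line array 1, without which the value was 0.57 (adjusted p = 0.266). Over time it read 0.50 and 1.29 in Y577F cells and 0.50, 0.38 and 0.77 in FI-Delta cells. The rise of 0.95 ± 0.18 in Y577F cells passed (adjusted p = 0.0028) except without Y577F time array 2 (0.74, adjusted p = 0.052). In FI-Delta cells 0.53 ± 0.18 did not pass (adjusted p = 0.119), but did without Y577F time array 1 (0.70). The difference between lines in the change was 0.42 (interval -0.02 to 0.87), and passed only without 0 h line array 1 (0.70, adjusted p = 0.0348).

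Ccl9, Ccl6 and Ccl5 lie next to these genes. Ccl9, a macrophage chemokine of the mouse that acts on CCR1, read 0.57 and 1.21 between lines at 72 h and 0.05, 0.65 and 0.85 at 0 h. It was higher in Y577F cells at 72 h by 0.93 ± 0.11 (adjusted p = 0.000207). Over 72 h it read 0.18 and 0.34 in Y577F cells, and -0.21, -0.96 and 0.16 in FI-Delta cells, and neither change passed in the full fit (0.22 and -0.32). Without Y577F time array 1, the FI-Delta change passed at -0.43. The lines differed in their change by 0.54 ± 0.13 (adjusted p = 0.025), lost without 0 h line array 1 or 72 h line array 2 (0.55 and 0.51). Ccl5, known as RANTES, read 0.27 and 0.30 between lines at 72 h and 0.36, -0.07 and 0.15 at 0 h. Its difference of 0.36 ± 0.09 at 72 h (adjusted p = 0.0278) was lost without FI-Delta time array 3, 72 h line array 2 or Y577F time array 1, at 0.32 to 0.35. Ccl6 passed no test, with its largest change 0.26 over time in Y577F cells (adjusted p = 0.125).

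**Figure D2:**
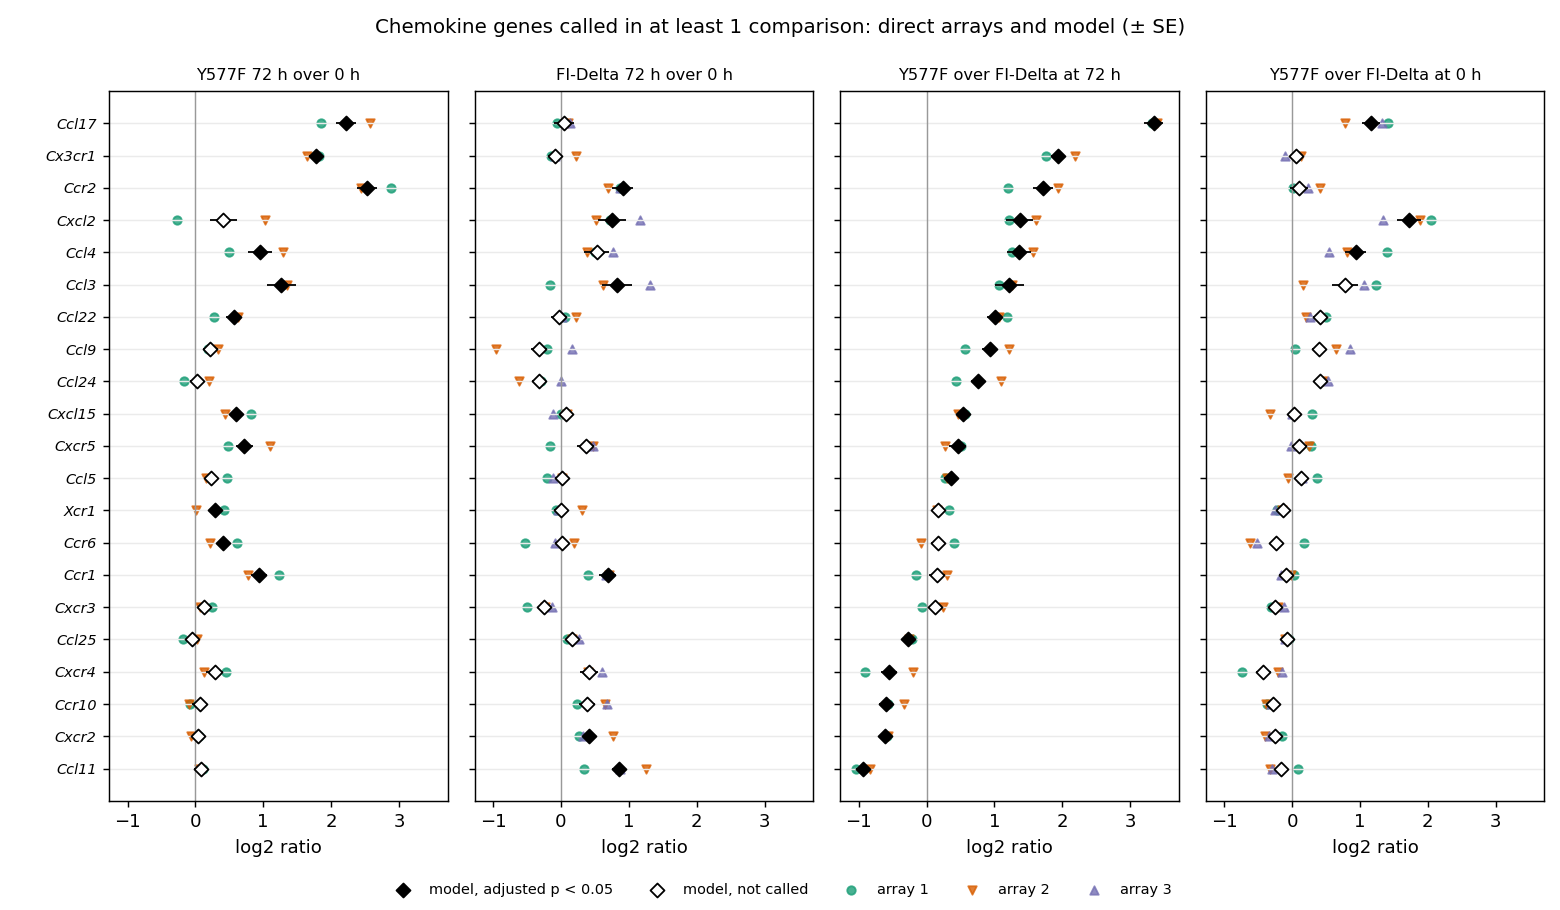
Log2 ratio (horizontal axis) of the 21 called genes (rows), with a panel for each comparison. Coloured symbols are the arrays that made the comparison directly, diamonds the model's value ± SE, filled where the adjusted p was under 0.05. Ccl17 sits above 3 on both 72 h line arrays and near 0 on all 3 FI-Delta time arrays, while Cxcl2 is above 1 on all 5 line arrays.

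Cxcl2, a CXCR2 ligand that draws neutrophils, had the largest difference between lines at 0 h. The log2 ratio of Y577F to FI-Delta cells was 1.22 and 1.61 at 72 h and 2.05, 1.88 and 1.34 at 0 h, and all 5 arrays had the same sign. It was 2.59-fold higher in Y577F cells at 72 h (adjusted p = 0.000744) and 3.29-fold higher at 0 h (adjusted p = 0.000679). Without 0 h line array 1, the 0 h value was 1.34 (adjusted p = 0.0176).

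Over 72 h, Cxcl2 read -0.27 and 1.02 in Y577F cells, of opposite sign on the 2 arrays, and 0.73, 0.51 and 1.16 in FI-Delta cells. The rise in FI-Delta cells of 0.76 ± 0.21 passed narrowly (adjusted p = 0.0465), and was lost on leaving out any of 7 arrays, at 0.56 to 0.78. In Y577F cells 0.41 ± 0.20 did not pass (adjusted p = 0.202), but did without Y577F time array 1 (0.79, adjusted p = 0.0491). The difference between lines in the change was -0.35, with an interval of -0.85 to 0.16.

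Cxcl1, the neighbour with the same kappaB run in its promoter, had no call, and its largest change was 0.12 between lines at 72 h (adjusted p = 0.418). Cxcl5, another CXCR2 ligand of this cluster, reached 0.06 at most (adjusted p = 0.733). Cxcl15, the lung-type CXC chemokine lungkine of the mouse, read 0.57 and 0.46 between lines at 72 h and 0.29, -0.32 and 0.00 at 0 h. It rose over time in Y577F cells, at 0.82 and 0.44 on the arrays (0.60 ± 0.09, adjusted p = 0.000768), and was 0.54 ± 0.09 higher than in FI-Delta cells at 72 h (adjusted p = 0.00202). The FI-Delta time arrays read 0.00, 0.08 and -0.11. The lines differed in the change by 0.52 ± 0.10 (adjusted p = 0.00994), lost without 72 h line array 2 (0.46).

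The eotaxins Ccl11 and Ccl24, which draw eosinophils through CCR3, differed between lines at 72 h in opposite directions. Ccl11 read -1.04 and -0.84 between lines at 72 h, against 0.09, -0.33 and -0.30 at 0 h. Over time it read 0.11 and 0.06 in Y577F cells, and 0.34, 1.26 and 0.87 in FI-Delta cells. The FI-Delta values all lie above those of Y577F cells, although the dye-swap pair of 0.34 and 1.26 was far apart.

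Ccl11 was 1.92-fold lower in Y577F cells at 72 h (-0.94 ± 0.10, adjusted p = 5.03e-05). It rose by 0.86 ± 0.10 in FI-Delta cells (adjusted p = 0.000257), while the change in Y577F cells was 0.08, with an interval of -0.13 to 0.29. The lines differed in the change by -0.78 ± 0.11 (adjusted p = 0.0012), which did not pass with only the time arrays and no dye term (-0.75, adjusted p = 0.0704). Ccl24 read 0.43 and 1.10 between lines at 72 h, and 0.43, 0.46 and 0.53 at 0 h, higher in Y577F cells on all 5 arrays. The call at 72 h was 0.76 ± 0.10 (adjusted p = 0.000389), and the 0.41 ± 0.09 at 0 h lay just above the threshold (adjusted p = 0.0526). Its change over time was 0.02 in Y577F cells and -0.33 in FI-Delta cells (adjusted p = 0.0881), the FI-Delta one passing without 0 h line array 1 (-0.41). Ccl25, the thymus and gut ligand of CCR9, was lower in Y577F cells at 72 h, at -0.22 and -0.27 on the arrays. That call (-0.27 ± 0.08, adjusted p = 0.0491) was lost on leaving out any of the 10 arrays, at -0.33 to -0.24. Ccr3 reached 0.17 over time in FI-Delta cells (adjusted p = 0.298) and Ccr9 0.07 (adjusted p = 0.681).

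Among the receptors, Ccr2 had the largest rise over time. CCR2 brings monocytes out of the bone marrow and into inflamed tissue. Over 72 h Ccr2 read 2.89 and 2.44 in Y577F cells, and 0.87, 0.69 and 0.87 in FI-Delta cells. All arrays showed a rise, and the values of the lines do not overlap. Between lines it read 1.21 and 1.94 at 72 h, against 0.01, 0.41 and 0.24 at 0 h.

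The rise of Ccr2 was 5.76-fold in Y577F cells (2.53 ± 0.15, adjusted p = 7.42e-07) and 0.91 ± 0.15 in FI-Delta cells (adjusted p = 0.00329), and the difference was 1.61 ± 0.17 (adjusted p = 0.000176). At 72 h it was 3.27-fold higher in Y577F cells (adjusted p = 1.46e-05). At 0 h the difference was 0.10, with an interval of -0.19 to 0.39. None of its ligands passed a test: the largest changes were -0.35 for Ccl2 in the difference between lines (adjusted p = 0.102), 0.16 for Ccl12 over time in Y577F cells (adjusted p = 0.29), -0.10 for Ccl7 over time in Y577F cells and -0.05 for Ccl8 in the difference between lines. In RNA from whole cultures, more RNA per cell and more cells that carry the transcript cannot be told apart, here and for all genes below.

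Cx3cr1, the fractalkine receptor of patrolling monocytes and tissue macrophages, rose in Y577F cells, at 1.82 and 1.65 on the time arrays. The FI-Delta time arrays read -0.15, 0.22 and -0.09, on both sides of 0. Between lines it read 1.77 and 2.19 at 72 h, and 0.07, 0.14 and -0.10 at 0 h, with a wide gap between the times. The rise in Y577F cells was 3.44-fold (adjusted p = 6.08e-07), the difference between lines at 72 h was 3.81-fold (adjusted p = 3.34e-07), and the difference in change was 1.87 ± 0.12 (adjusted p = 1e-05). The change in FI-Delta cells was -0.09 (interval -0.32 to 0.15) and the difference at 0 h was 0.06. Its ligand Cx3cl1 reached -0.22 between lines at 72 h (adjusted p = 0.237).

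Ccr1, a receptor for Ccl3, Ccl5 and Ccl9 on monocytes and neutrophils, rose in both lines. It read 1.23 and 0.77 over time in Y577F cells, and 0.41, 0.71 and 0.67 in FI-Delta cells. The rise was 0.93 ± 0.12 in Y577F cells (adjusted p = 0.000195) and 0.69 ± 0.12 in FI-Delta cells (adjusted p = 0.00451), and the difference of 0.24 had an interval of -0.05 to 0.54. Between lines the 72 h arrays read -0.15 and 0.31 and the 0 h arrays 0.02, -0.02 and -0.16, with no constant sign.

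**Figure D3:**
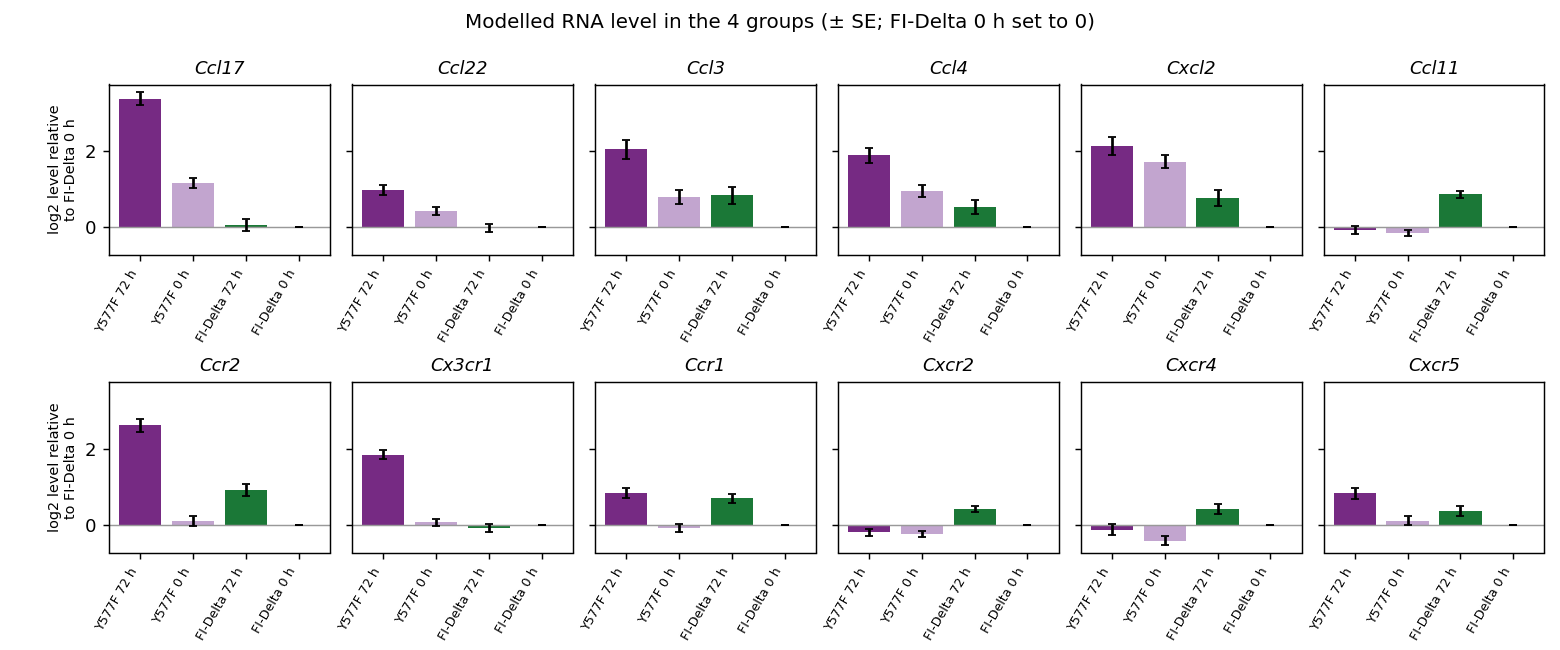
Modelled log2 level of named genes in Y577F cells at 72 h and 0 h and in FI-Delta cells at 72 h, relative to FI-Delta cells at 0 h, set to 0 (vertical axis; error bars are SE from the model). Ccl17, Ccr2 and Cx3cr1 are highest in Y577F cells at 72 h, at 3.39, 2.62 and 1.85, and Ccl11 is highest in FI-Delta cells at 72 h, at 0.86.

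Among the CXC receptors, Cxcr2, the neutrophil receptor for Cxcl1, Cxcl2 and Cxcl5, read -0.58 and -0.57 between lines at 72 h and -0.15, -0.40 and -0.35 at 0 h, lower in Y577F cells on all 5 arrays. Over time it read 0.06 and -0.06 in Y577F cells, and 0.27, 0.77 and 0.33 in FI-Delta cells, without overlap. It was lower in Y577F cells at 72 h (-0.62 ± 0.08, adjusted p = 0.000367), and it rose in FI-Delta cells by 0.41 ± 0.08 (adjusted p = 0.01), lost without FI-Delta time array 3 (0.42, adjusted p = 0.0583). The difference in change of -0.37 ± 0.09 (adjusted p = 0.0293) was lost on leaving out any of 6 arrays, at -0.38 to -0.32.

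Cxcr4, which holds progenitors and neutrophils in the marrow, was lower in Y577F cells on all 5 line arrays, at -0.91 and -0.20 at 72 h and -0.74, -0.21 and -0.15 at 0 h. The 72 h call (-0.55 ± 0.12, adjusted p = 0.0124) rested on 72 h line array 1, without which it was -0.42 (adjusted p = 0.157). Over time Cxcr4 read 0.45 and 0.13 in Y577F cells, and 0.40, 0.41 and 0.60 in FI-Delta cells. These changes did not pass in the full fit (0.29, adjusted p = 0.151, and 0.42, adjusted p = 0.0785). Without Y577F time array 2 they passed at 0.52 and 0.47, as did the difference at 0 h at -0.51, and without FI-Delta time array 1 the FI-Delta change passed at 0.48. Its ligand Cxcl12 reached -0.29 over time in FI-Delta cells (adjusted p = 0.111).

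Cxcr5, which guides B cells to follicles, rose in Y577F cells, at 0.48 and 1.09 (0.72 ± 0.13, adjusted p = 0.00191), and read -0.16, 0.47 and 0.47 in FI-Delta cells. Its FI-Delta change of 0.36 passed only without FI-Delta time array 1 (0.50). Between lines it read 0.50 and 0.28 at 72 h, and 0.27, 0.24 and -0.01 at 0 h. The 72 h call (0.46 ± 0.13, adjusted p = 0.0334) was lost without FI-Delta time array 2, 0 h line array 2 or 72 h line array 1, at 0.40 to 0.50. Its ligand Cxcl13 reached 0.03 (adjusted p = 0.848).

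Ccr10, a skin-homing receptor of lymphocytes, was lower in Y577F cells, at -0.57 and -0.33 at 72 h and -0.37, -0.38 and -0.31 at 0 h. It passed at 72 h (-0.60 ± 0.11, adjusted p = 0.00322). Over time it read -0.08 and -0.09 in Y577F cells, and 0.23, 0.65 and 0.69 in FI-Delta cells, where 0.39 ± 0.11 did not pass (adjusted p = 0.0612). It passed in 7 of the 17 alternatives, among them without FI-Delta time array 1, 72 h line array 2 or Y577F time array 2 (0.49, 0.47 and 0.42). Its ligands Ccl27a and Ccl28 reached 0.25 over time in Y577F cells (adjusted p = 0.0688) and 0.26 in the difference between lines (adjusted p = 0.13).

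Ccr6, Xcr1 and Cxcr3 were called with small changes that single arrays decided. Ccr6, the Ccl20 receptor, read 0.62 and 0.22 over time in Y577F cells and -0.53, 0.20 and -0.09 in FI-Delta cells, where the highest value lies just under the lower Y577F one. Its rise of 0.41 ± 0.09 in Y577F cells (adjusted p = 0.00901) was lost without either Y577F time array (0.37 and 0.45), and the difference in change of 0.40 ± 0.11 (adjusted p = 0.0367) was lost without any of 7 arrays. Xcr1, a marker of cross-presenting dendritic cells, read 0.43 and 0.01 in Y577F cells over time, and -0.08, 0.31 and -0.05 in FI-Delta cells. Its rise of 0.30 ± 0.09 in Y577F cells (adjusted p = 0.0479) was lost without any of 9 arrays (0.26 to 0.31), and the difference in change passed only without Y577F time array 2 (0.41).

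Cxcr3, the receptor for interferon-induced ligands, read 0.25 and 0.06 over time in Y577F cells and -0.50, -0.24 and -0.13 in FI-Delta cells, without overlap. The difference in change of 0.37 ± 0.10 (adjusted p = 0.0485) was lost without any of 9 arrays (0.31 to 0.43). Its ligands Cxcl9, Cxcl10 and Cxcl11 reached -0.07, 0.32 (adjusted p = 0.152) and 0.17 and passed no test. Ccl20 reached 0.13 (adjusted p = 0.42) and Xcl1 0.18 (adjusted p = 0.206).

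**Figure D4:**
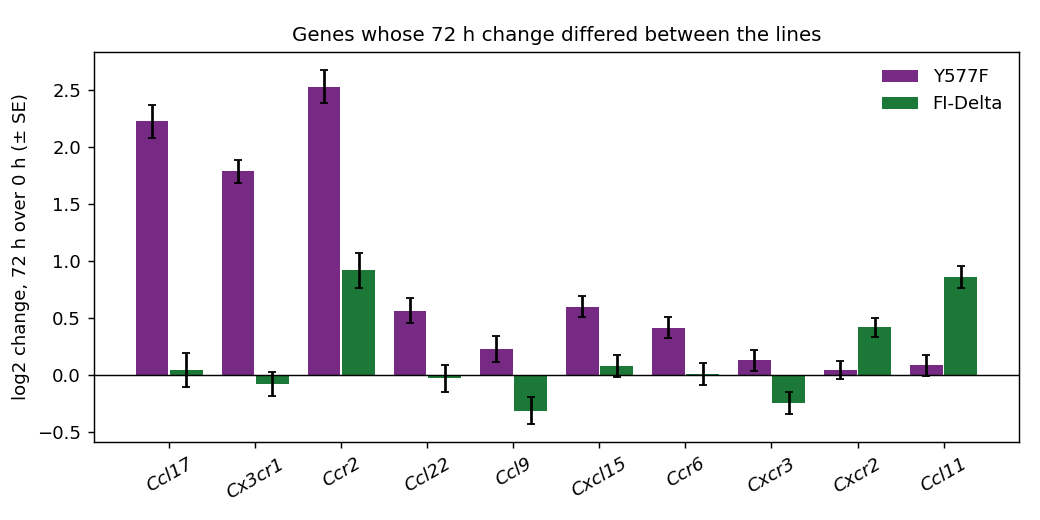
Modelled log2 change over 72 h (vertical axis; bars, with SE as error bars) in Y577F and FI-Delta cells, for the 10 genes whose change differed between lines at an adjusted p under 0.05. The Y577F bar is far above the FI-Delta bar for Ccl17, Cx3cr1 and Ccr2, and below it for Ccl11 and Cxcr2.

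The other 30 genes, 23 ligands and 7 receptors, passed no test in any comparison. Their largest change in any of the 5 comparisons lay between 0.034 and 0.355 in absolute log2 value, with a median of 0.168. The median SE over all features was 0.0871 to 0.112 by comparison, so changes of that size were mostly not detectable with these arrays. Ccl21a, the 1 gene with 2 probes, read 0.13 and 0.04 on them between lines at 72 h, and it is nearly identical in sequence to Ccl21c, so the probes may not tell the copies apart.

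Other genes of the pathway were read as lists, without a test of any list. Counts of these and of the marker lists below stand beside the following shares of all features. Over time 9.28% rose and 8.75% fell in Y577F cells, and 5.19% rose and 2.97% fell in FI-Delta cells. Between lines 6.44% were higher and 6.45% lower in Y577F cells at 72 h, and 0.934% and 0.484% at 0 h. Of 8 measured receptors for other chemoattractants, 4 rose and 0 fell over time in Y577F cells, and 2 rose and 0 fell in FI-Delta cells. Fpr2, a formyl peptide receptor, rose by 2.37 ± 0.14 in Y577F cells and by 1.60 ± 0.14 in FI-Delta cells, and Cmklr1, the chemerin receptor, rose by 1.46 ± 0.12 in Y577F cells. The leukotriene B4 receptor Ltb4r1 was lower in Y577F cells at 72 h at -0.74 ± 0.11, and rose by 0.88 ± 0.11 in FI-Delta cells. Of 13 measured atypical receptors and related family genes, 5 rose and 0 fell over time in Y577F cells, among them Ccrl2 (0.61 ± 0.08), and 2 rose in FI-Delta cells, among them Ccrl2 (0.51 ± 0.08).

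Of 29 genes that relay chemokine receptor signals, 20 rose and 1 fell over time in Y577F cells, with a list median of 0.43, and 15 rose and 0 fell in FI-Delta cells, with a median of 0.34. Between lines 6 were higher and 1 lower in Y577F cells at 72 h, and none passed at 0 h. The kinases Prkcd and Fgr rose by 1.74 ± 0.11 and 1.38 ± 0.09 in Y577F cells. Of 24 inducers and regulators of chemokine genes, 16 rose and 1 fell over time in Y577F cells, and 11 rose and 1 fell in FI-Delta cells. The early response gene Egr1 rose by 3.03 ± 0.10 in Y577F cells and 1.41 ± 0.11 in FI-Delta cells, and Tnf, a cytokine that induces chemokines, was higher in Y577F cells at 72 h (0.96 ± 0.10) and at 0 h (0.46 ± 0.09). At 72 h 14 of the 24 were higher and 1 lower in Y577F cells. The 1 lower was Il1b (-1.28 ± 0.30).

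Markers of cell types were also read as lists, which did not all move in the same direction. Of 14 monocyte and macrophage markers, 12 rose and 0 fell over time in Y577F cells, with a list median of 0.97, and 8 rose and 0 fell in FI-Delta cells, with a median of 0.65. At 72 h 9 were higher in Y577F cells, among them Ctss (2.22) and Clec7a (2.09), and 1 was lower, Itgam (-1.15). A neutrophil list of 13 held granule genes but also the receptor gene Csf3r. At 72 h 12 of the 13 were lower in Y577F cells (list median -2.52, with Camp at -3.94). The 1 higher was Csf3r (0.36 ± 0.10). At 0 h 11 of the 13 were lower and 0 higher (median -0.90). Over time 2 of the 13, Csf3r and Mmp8, rose and 5 fell in Y577F cells (median -0.16). In FI-Delta cells 11 rose and 0 fell (median 1.05). Of 9 dendritic cell markers, of which Ccr7 is also a chemokine receptor, 4 rose in Y577F cells, led by Itgax (2.24 ± 0.14), and 2 in FI-Delta cells. Of 8 mast cell and basophil markers, 3 were higher and 0 lower in Y577F cells at 72 h, and 2 were higher and 0 lower at 0 h. Fcer1a was higher by 2.32 ± 0.20 at 72 h and 1.14 ± 0.18 at 0 h, and Cpa3 by 2.29 ± 0.10 and 0.49 ± 0.09. The other 5 at 72 h and 6 at 0 h did not pass, among them Mcpt8 (-0.004) and Ms4a2 (0.01) at 72 h. Over time 1 of the 8 rose and 3 fell in Y577F cells, and 0 rose and 4 fell in FI-Delta cells. Of 9 lymphoid markers 0 rose and 1 fell in Y577F cells, 1 rose and 0 fell in FI-Delta cells, and 0 were higher and 2 lower in Y577F cells at 72 h. The part of cell composition in the chemokine results was not tested.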

How the data were processed

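The deposited log2 ratios of 10 two-colour spotted oligonucleotide arrays were used as the authors normalized them. The submitters' processing notes name limma without version or settings. How the background was corrected, the normalization, the log base and the direction are each not given in these sources, so base 2 and Cy5 over Cy3 were assumed from limma's usual output. Per the labels' protocols, total RNA was labelled indirectly. Signal intensities were not used here, so no spot's depth is known, and precision is set by how many arrays there are.

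Of 23040 spots, 1243 controls were left out. Of 21797 probes, 16651 had 1 platform gene symbol, 137 several and 5009 none. Probes of 1 gene were averaged, giving 20243 features, none with a missing value. All 51 member symbols matched RefSeq (GRCm38.p6). Signs were turned by the titles, and the FI-Delta dye swap was averaged, leaving 9 hybridisations. The linear model (R 4.3.3, limma 3.58.1) described the 4 groups by 3 parameters plus 1 for the dye (5 residual and 6.34 prior degrees of freedom), with Benjamini-Hochberg adjustment over all features. The dye term was called in 146 features and in 0 of the chemokine genes. Arrays share extracts but were treated as independent, and p-values measure the spread between these arrays. A trial of the fit on simulated data drew noise independently for each array, so it could not check the effect of shared extracts.

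Named genes were those called in at least 1 comparison, Ccl17, Cxcl2, Ccl4, Ccr2 and Cx3cr1 in any case, partner ligands or receptors of called genes with their largest change, and up to 4 called genes for each list and comparison. The remaining genes were counted. Members and lists were chosen with earlier results of these data known. Alternatives changed the dye term, arrays used, replicate block, dye-swap averaging, array weights, scaling and probe averaging, or left out 1 array.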

Additional observations from a re-analysis of the deposited data

Results flagged for a closer look

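The change over 72 h differed between the lines, by limma's interaction contrast at an adjusted p under 0.05, for 10 of the 51 genes, beside 4.33% of all features with a larger and 4.91% with a smaller change in Y577F cells. Values are the log2 change in Y577F cells minus that in FI-Delta cells. Among the ligands these were Ccl17 at 2.18, Ccl22 at 0.60, Ccl9 at 0.54, Cxcl15 at 0.52 and Ccl11 at -0.78. Among the receptors they were Cx3cr1 at 1.87, Ccr2 at 1.61, Ccr6 at 0.40, Cxcr3 at 0.37 and Cxcr2 at -0.37. Ccl17, Cx3cr1 and Ccr2 passed in all 17 alternative settings. Leaving out 72 h line array 2 ended the calls of Ccl22 (0.54), Ccl9 (0.51) and Cxcl15 (0.46), among others.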

How the results depend on the processing

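Of 47 called gene values, 26 kept their call in all 17 alternatives, and none changed sign to a call in the other direction. They include all calls of Ccl17, Ccr2, Cx3cr1 and Ccr1. Of 58 values that did not pass for the same genes, 17 passed in some setting and 17 changed sign in some setting. Counts of chemokine genes called, against 11 over time in Y577F cells, 6 in FI-Delta cells, 17 between lines at 72 h, 3 at 0 h and 10 for the difference in change, moved by over 1.5 times in these settings. Over time in FI-Delta cells there were 11 (8 higher, 3 lower) with the dye swap not averaged and 17 (13 higher, 4 lower) with array weights, and at 0 h 5 with array weights. For the difference in change there were 6 without a dye term and 6 with arrays scaled. The 3 with direct arrays only and the 4 with the replicate block came from fits that also had no dye term, so each changed 2 choices. The replicate block, a term for each RNA extract without the dye term, gave 10 between lines at 72 h, 9 over time in Y577F cells, 5 in FI-Delta cells and 3 at 0 h. Labels number the cultures, but give a number to 1 line on some line arrays and to the other line on others. The block read numbers 1 and 2 as FI-Delta and 3 and 4 as Y577F cultures. No label says that a number marks a shared batch, and ratios with 2 cultures of a line did not allow a check of pairing. Leaving out 1 array gave 10 to 11 over time in Y577F cells, 3 to 9 in FI-Delta cells, 15 to 16 between lines at 72 h, 2 to 4 at 0 h and 5 to 9 for the difference in change. For these counts, here and above, the share of all features called in the same setting is not given. They therefore do not show whether the chemokine genes moved more than other features. The causes of these moves were not tested. Only 2 cultures of each line, 0 h arrays of weak correlation and unknown spot intensities limit small changes.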

Other observations

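Many chemokine genes lie in clusters, and the calls are given here by cluster. Calls in any comparison covered 21 of the 51 genes and 25.2% of all features. In the chromosome 11 run of Ccl5, Ccl9, Ccl6, Ccl3 and Ccl4, 4 of 5 genes were called in at least 1 comparison, whereas in the other chromosome 11 run, of Ccl2, Ccl7, Ccl11, Ccl12, Ccl8 and Ccl1, only Ccl11 was, 1 of 6. On chromosome 8, Ccl17 and Ccl22 were called and Cx3cl1, which lies between them, was not. On chromosome 5, Cxcl2 and Cxcl15 were called and Cxcl1 and Cxcl5 were not. No gene was called in the other chromosome 5 run, of Cxcl9 and Cxcl10, or in the chromosome 4 run of Ccl19 and Ccl21a. In the chromosome 9 run of receptors, 3 of 7 were called, namely Ccr1, Ccr2 and Xcr1, and Cx3cr1 was called while its neighbour Ccr8 was not. The calls of Xcr1 and Ccl5 were among those lost on leaving out single arrays. Runs were defined after the values were known, as members with at most 5 coding genes between neighbours, and carry no test.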
